A study of Drosophila melanogaster with 8 samples.

Results

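The genes described here encode the machinery that moves proteins into and out of the endoplasmic reticulum (ER) of Drosophila melanogaster, together with the transcription factor CrebA. Members were taken by name under a rule that did not use their values, although earlier results of these data were known. They were all genes whose symbol, ignoring case, starts with sec or srp followed by a digit or with srpr, or ends in cop, plus CrebA and sar1; serpent (srp) was left out. The rule found 34 of the 15182 fly genes listed. Sorted by known role, they were CrebA, 6 genes of the COPII coat and its exit sites, 7 of the COPI coat, 7 of the signal recognition particle (SRP) and its receptor, 4 of the translocon, 6 of the exocyst and 3 others. One of the last, Srp54, is listed here because of its symbol: it encodes an SR-type splicing factor, and the SRP subunit of a similar name is Srp54k.

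RNA was sequenced from dissociated embryos that carried E10::EGFP, in which E10, an enhancer of ovo (shavenbaby), drives the green fluorescent protein EGFP. Eggs were laid for 1 h and aged for about 11 h at 25 °C, so that all samples came from embryos at early stage 14. Each of 4 independent sorts gave 1 sample of EGFP-positive cells, called GFP-positive here, with a gate set on cells of wild type embryos. The same sort also gave 1 sample of 50000 cells taken before the EGFP gate, named all cells here. Both groups carried the transgene and both groups had 4 libraries. The all-cell samples include EGFP-positive cells, so each comparison sets a subset of cells against a mixture that holds it. The series' design text calls the mixture GFP-negative, and the sample labels, which say all cells, were followed.

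A protein bound for secretion or for a membrane is recognised by SRP while it is being made, and SRP docks its ribosome at the SRP receptor on the ER. The chain then passes through the Sec61 channel, the translocon. COPII coats, whose assembly starts with the GTPase Sar1, bud vesicles from ER exit sites towards the Golgi, COPI coats return vesicles from the Golgi to the ER, and the exocyst tethers secretory vesicles to the plasma membrane. CrebA is a bZIP transcription factor. In Drosophila embryos it is known for raising the expression of secretory pathway genes, above all in the salivary gland, and it is also expressed in the trachea and epidermis, whose cells secrete cuticle.

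FPKM values, which count fragments relative to transcript length and library size, summed to between 482441 and 561280 per library. Steps in the low values put the depth at about 6320000 to 9650000 fragments in the GFP-positive libraries and 10140000 to 12520000 in the all-cell libraries. For the members with 1 isoform this came to between 59.9 fragments, for sec5, and 15268 fragments, for Sec61alpha, per library. For the 10943 genes that were tested, limma placed 1265 higher and 4233 lower in the GFP-positive group, and the median log2 fold change was -0.47. A fold change here is GFP-positive over all cells on the scale of log2(FPKM + 1), and a call is an adjusted p under 0.05. The 92 spike-in RNAs of the ERCC mix summed to 22746 to 37807 FPKM in GFP-positive libraries and to 7530 to 24702 FPKM in all-cell libraries, the lowest being all-cell library 4. Scaling by them lowered the median of all genes to -1.26 (ERCC sum) or -1.57 (ERCC median), whereas TMM-like scaling raised it to -0.08. Changes are therefore also given relative to the median of all genes.

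Nearly all of the secretory genes had a higher log2 fold change than the median gene, but few passed the test on their own. All 34 members passed the filter on low values. Of these, 8 were called higher, against 11.6% of all genes, and 1 was called lower, against 38.7% of all genes. The genes called higher were CrebA, sar1, sec23, gammaCop, SrpRbeta, sec63, Sec61alpha and Sec22, and Srp54 was called lower. The other 25 were not called. The median log2 fold change of the members was 0.21 as deposited, 0.68 above the median of all genes, and 33 of 34 lay above that median, all but Srp54. Leaving out Srp54, the median of the other 33 was 0.26. With TMM-like scaling 22 members were called higher and 1 lower, against 19.6% and 21.9% of all genes. With the ERCC sum 0 were called higher and 2 lower, against 2.82% and 52.2% of all genes, so that the direction relative to 0 depended on the scaling. The fit with the sort as a block called 12 higher and 1 lower, against 13.2% and 44.6% of all genes. The count also depended on which sorts were in: without sort 4 it was 4 higher and without sort 2 it was 5. Leaving out single libraries gave 6 to 10. Of the 10943 genes tested, 1165 were called higher without sort 4 and 893 without sort 2, against 1265 with all libraries. Without single libraries it was 1050 to 1259 genes. The labels call the sorts independent but do not name separate cultures, and p-values measure the spread between these samples.

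**Figure D1:**
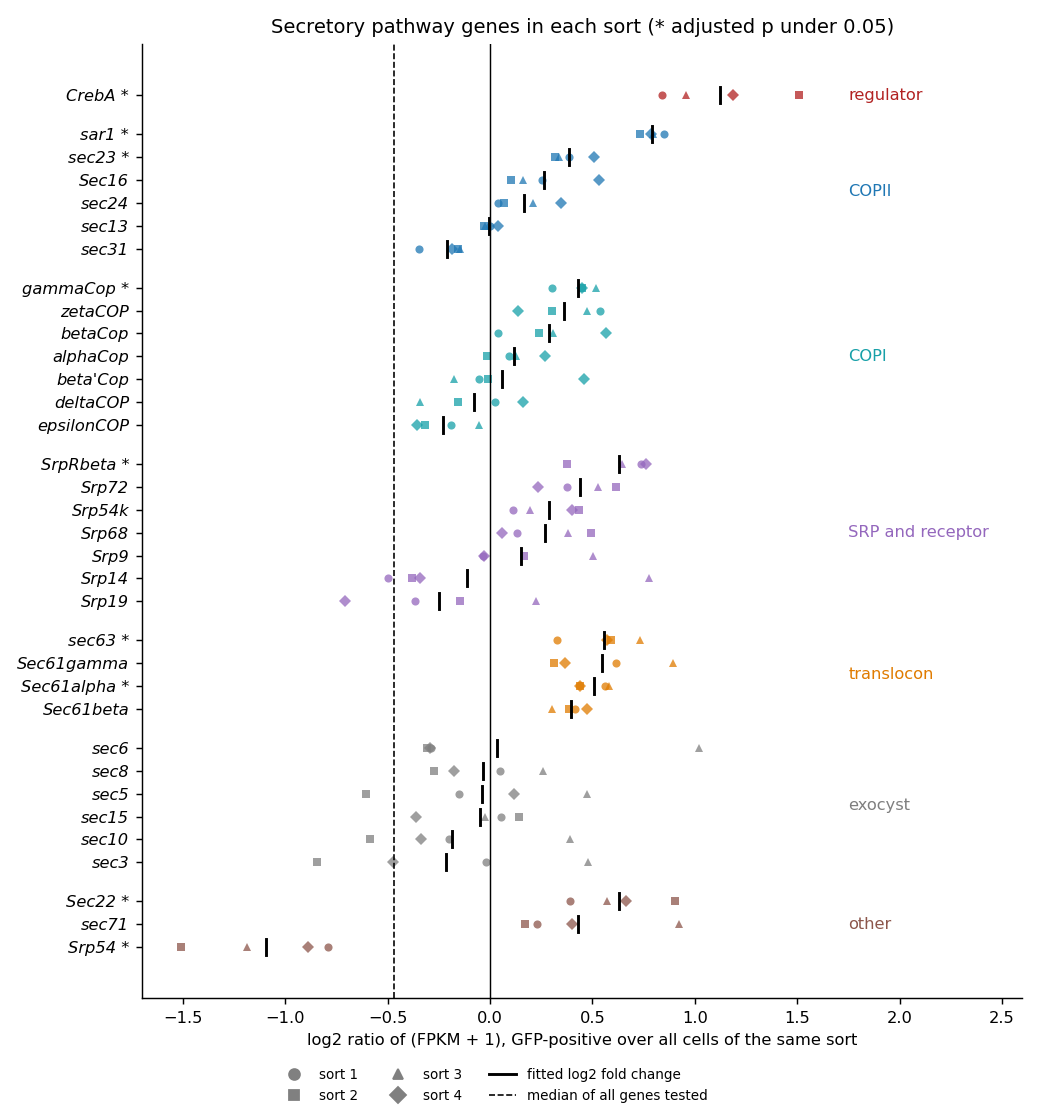
Log2 ratio of (FPKM + 1), GFP-positive over all cells, for the 34 members in each of 4 sorts (symbols), with the fitted log2 fold change (bar), 0 (solid line) and the median of all genes tested (dashed line, -0.47); stars mark an adjusted p under 0.05. CrebA and sar1 lie at the top with 1.12 and 0.79, and Srp54 lies at the bottom with -1.09. The 4 translocon genes lie above 0 in every sort as deposited. Scaled by the ERCC sum, every member but CrebA falls below 0, and 1095 of the 10943 genes tested lie above 0.

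Across sorts, 18 members were higher in GFP-positive cells in all 4, against 15.4% of all genes, and 3 were lower in all 4, against 51.1% of all genes. The 3 were sec31, epsilonCOP and Srp54. In 7 members all GFP-positive libraries lay above all all-cell libraries, against 10.2% of all genes, and in 1 member, Srp54, all lay below, against 34.8% of all genes. The members higher in GFP-positive cells numbered 22, 20, 27 and 23 of 34 in sorts 1 to 4, against 28.5%, 31.1%, 34.3% and 26.7% of all genes. By the fitted log2 fold change 22 of 34 lay above 0, against 27.5% of all genes. In bulk samples a larger share of cells that express a gene and more RNA of that gene per cell cannot be told apart.

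CrebA had the largest positive log2 fold change among the members as deposited. The gene (CG7450, chromosome 3L, 15528514 to 15546314 on dm3) stood at 244, 245, 234 and 239 FPKM in the GFP-positive libraries of sorts 1 to 4 and at 136, 85.4, 120.2 and 104 FPKM in the all-cell libraries. The GFP-positive libraries lay within a narrow band, all above the highest all-cell library, and the spread was in the all-cell libraries, of which that of sort 2 was the lowest. The means were 241 ± 5.04 and 111 ± 21.7 FPKM (SD, n = 4 each), 2.16-fold higher in GFP-positive cells. The fit gave CrebA a log2 fold change of 1.12 (limma adjusted p = 1.39e-04, SE 0.15), at percentile 92.9 of all genes tested. Leaving out any 1 library or sort gave 0.99 to 1.23 and kept the call. Relative to the median of all genes CrebA was higher by 1.59 as deposited, by 1.68 with TMM-like, 1.64 with upper quartile and 1.16 with quantile scaling, by 1.44 with the ERCC sum and by 1.36 with the ERCC median. On the ERCC scales themselves its log2 fold change was 0.18 and -0.20 and was not called (limma adjusted p = 0.756 and 0.683).

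The 7 genes of SRP and its receptor had a median log2 fold change of 0.27 as deposited, 0.73 above all genes. Of the 7, 5 lay above 0 and 1 was called higher, against 27.5% and 11.6% of all genes. With the ERCC sum 0 of 7 lay above 0, against 1095 of the 10943 genes tested. Their median was then -0.65, which is 0.60 above all genes. SrpRbeta (CG33162, chromosome 3L, 8712198 to 8713317), the membrane-anchored subunit of the SRP receptor, was the member called. It stood at 65.8, 41.98, 44.5 and 51.5 FPKM in GFP-positive libraries and at 39.1, 32.1, 28.05 and 29.97 FPKM in all-cell libraries of sorts 1 to 4. The groups did not overlap, and GFP-positive library 1 was the highest. SrpRbeta thus had a log2 fold change of 0.63 (limma adjusted p = 0.01104, SE 0.17), from means of 50.9 ± 10.7 and 32.3 ± 4.82 FPKM (SD, n = 4 each); without sort 4 the adjusted p was 0.0564.

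Among the SRP subunits, Srp72, Srp54k and Srp68 were higher in GFP-positive cells within every sort without being called. Srp72, which with Srp68 forms a dimer on the particle's RNA, stood at 52.4, 44.7, 37.1 and 48.5 FPKM against 40.1, 28.9, 25.4 and 41.2 FPKM. Its groups overlapped, with all-cell libraries 1 and 4 above GFP-positive library 3. Its fitted change was 0.44 (limma adjusted p = 0.0728), and with the sort as a block Srp72 was called (limma adjusted p = 0.0173). Srp54k, the GTPase that binds the signal sequence, stood at 34.5, 28.9, 27.3 and 33.3 FPKM against 31.8, 21.1, 23.7 and 25.05 FPKM, a log2 fold change of 0.29 (limma adjusted p = 0.1701). Its groups also overlapped, since all-cell library 1 was above GFP-positive libraries 2 and 3. Srp68 (0.27), Srp9 (0.15), Srp14 (-0.11) and Srp19 (-0.25) were not called; Srp9 and Srp14 form the Alu-domain dimer and Srp19 binds the particle's RNA. Srp68 had log2 ratios of 0.13, 0.49, 0.38 and 0.06 in sorts 1 to 4. Srp14 was higher in GFP-positive cells in sort 3 alone, at 33.4 against 19.1 FPKM. The loci of Srp72, Srp68 and Srp14 overlap CG4159, CG5644 and CG34008, so that fragments may have been shared between them.

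The translocon was the role group with the highest median, 0.53 as deposited or 0.99 above all genes. All 4 of its members were higher in GFP-positive cells in every sort as deposited, against 15.4% of all genes. With the ERCC sum all 4 lay below 0, where 1095 of the 10943 genes tested lay above 0. The translocon median was then -0.42, which is 0.84 above all genes. Sec61alpha (CG9539, chromosome 2L, 6477182 to 6480489), the pore-forming subunit, was the most abundant of the 34 members, at 1053, 820.0, 723 and 847 FPKM in GFP-positive and 713, 604, 483 and 624 FPKM in all-cell libraries. The highest all-cell library, that of sort 1, lay just below the lowest GFP-positive one, that of sort 3, so that the groups did not overlap. In the fit, the log2 fold change of Sec61alpha was 0.51 (limma adjusted p = 0.0221, SE 0.16), from means of 861 ± 139 and 606 ± 94.8 FPKM (SD, n = 4 each). The call was lost without all-cell library 3, GFP-positive library 1, sort 2 or sort 4, with limma adjusted p up to 0.0818.

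sec63 (CG8583, chromosome 3L, 7353663 to 7357466), a J-domain protein that joins the channel to the ER chaperone BiP, stood at 66.2, 59.98, 60.4 and 69.6 FPKM against 52.7, 39.5, 35.95 and 46.5 FPKM. All GFP-positive libraries were above all all-cell ones. The call held without any 1 library or sort, with limma adjusted p up to 0.0480. For sec63 the log2 fold change was 0.55 (limma adjusted p = 0.00919, SE 0.15), and its means were 64.1 ± 4.68 and 43.7 ± 7.42 FPKM (SD, n = 4 each). Sec61gamma, a small channel subunit, stood at 514, 304, 320.2 and 392 FPKM against 335, 245, 172 and 304 FPKM. It had GFP-positive values above the all-cell value of the same sort each time, but all-cell library 1 was above GFP-positive libraries 2 and 3. Its log2 fold change was 0.55 (limma adjusted p = 0.0636), and that of Sec61beta, the other small subunit, was 0.39 (limma adjusted p = 0.0603, means 417 ± 75.3 and 316 ± 47.2 FPKM, SD, n = 4 each). With the sort as a block both were called (limma adjusted p = 0.00591 and 0.00803). All 4 translocon genes were thus called higher in that fit, against 13.2% of all genes.

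Among the COPII genes, sar1, the GTPase that starts the coat, had the largest log2 fold change. The median log2 fold change of the 6 genes was 0.21 as deposited, 0.68 above all genes. Of the 6, 4 lay above 0 and 2 were called higher, against 27.5% and 11.6% of all genes. With the ERCC sum all 6 lay below 0, where 1095 of the 10943 genes tested lay above 0. The COPII median was then -0.71, which is 0.54 above all genes. sar1 (CG7073, chromosome 3R, 18182397 to 18186440) stood at 560.2, 473, 510.1 and 599 FPKM in GFP-positive libraries and at 310.2, 285, 293 and 347 FPKM in all-cell libraries. The groups were far apart, and the log2 ratios within sorts 1 to 4 were close to each other, at 0.85, 0.73, 0.80 and 0.78. The fitted log2 fold change of sar1 was 0.79 (limma adjusted p = 4.64e-04, SE 0.13), from means of 536 ± 55.02 and 309 ± 27.6 FPKM (SD, n = 4 each), 1.73-fold. It kept its call without any 1 library or sort, but stood at -0.15 with the ERCC sum.

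sec23 (CG1250, chromosome 3R, 1474787 to 1478351), the inner coat subunit that activates the Sar1 GTPase, stood at 104, 89.6, 82.4 and 119 FPKM against 79.4, 71.7, 65.1 and 83.3 FPKM. Within each sort its GFP-positive value was the higher one, though the groups overlapped: all-cell library 4 exceeded GFP-positive library 3. For sec23 the fit gave a log2 fold change of 0.39 (limma adjusted p = 0.0472, SE 0.15), with means of 98.7 ± 16.1 and 74.9 ± 8.097 FPKM (SD, n = 4 each). This call was the closest to the threshold and held in 1 of 8 fits without 1 library and in 0 of 4 without 1 sort. Sec16, the scaffold of ER exit sites, stood at 81.7, 77.7, 88.7 and 96.6 FPKM against 68.3, 72.2, 79.3 and 66.6 FPKM, a log2 fold change of 0.26 (limma adjusted p = 0.101). Its groups overlapped and the locus also overlaps CG1463. The inner coat gene sec24 (0.17) and the outer coat genes sec13 (-0.0039) and sec31 (-0.21) were not called. sec13 had nearly equal means, 47.98 ± 7.11 and 48.01 ± 6.03 FPKM (SD, n = 4 each), while sec31 was lower in GFP-positive cells in each sort; the loci of sec24 and sec31 overlap CG12744 and ana2.

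**Figure D2:**
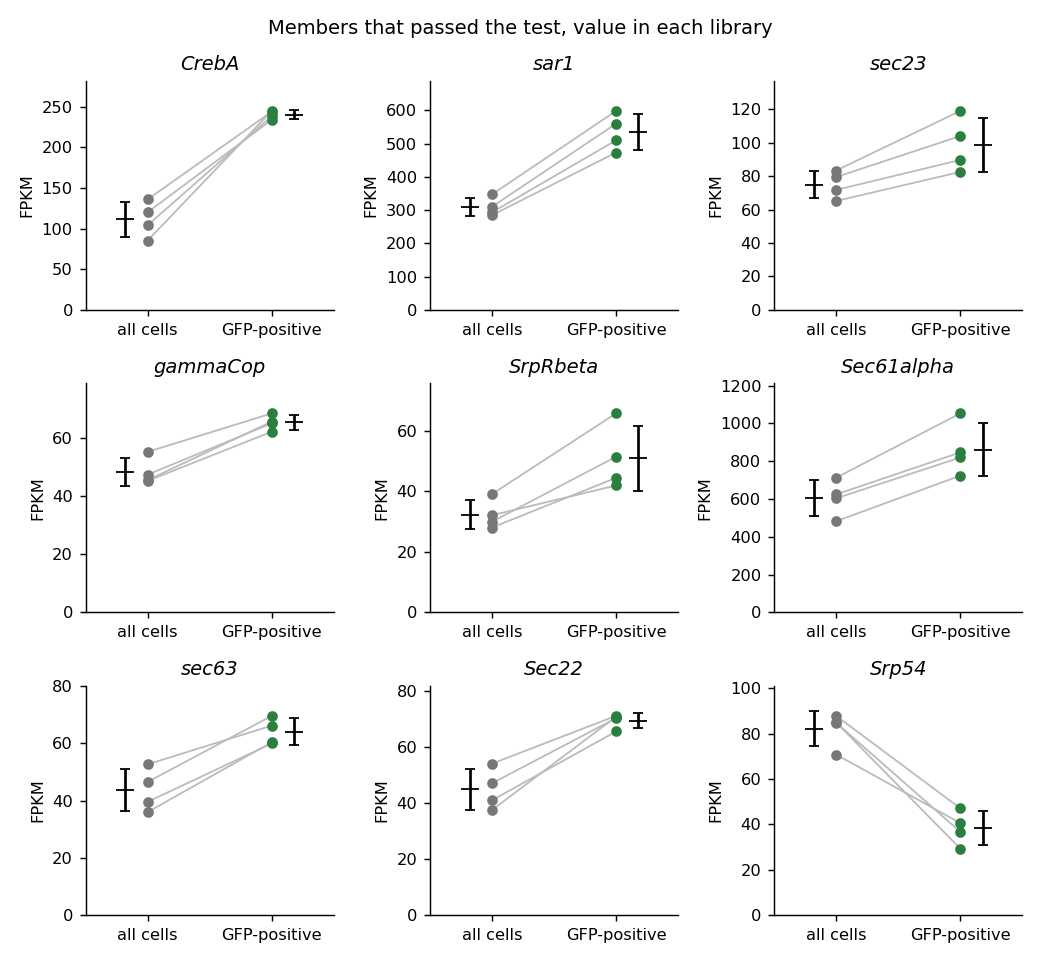
FPKM of the 9 members that passed the test in each library of all cells and of GFP-positive cells as deposited, with grey lines joining the libraries of a sort and black bars giving the mean and SD (n = 4 per group). CrebA in GFP-positive cells lies between 234 and 245 FPKM while its all-cell values spread from 85.4 to 136; sec23 is the gene whose groups overlap, and Srp54 is the gene that falls.

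The 7 COPI genes had a median log2 fold change of 0.12 as deposited, 0.59 above all genes. Of the 7, 5 lay above 0 and 1 was called higher, against 27.5% and 11.6% of all genes. With the ERCC sum all 7 lay below 0, where 1095 of the 10943 genes tested lay above 0. The COPI median was then -0.81, which is 0.45 above all genes. gammaCop (CG1528, chromosome 3R, 27397865 to 27401429), an inner coat subunit that binds cargo, stood at 68.4, 62.1, 65.5 and 64.95 FPKM against 55.1, 45.2, 45.4 and 47.3 FPKM. The groups did not overlap, and all-cell library 1 was the highest of its group. gammaCop had a log2 fold change of 0.43 (limma adjusted p = 0.0132, SE 0.12), from means of 65.2 ± 2.58 and 48.3 ± 4.69 FPKM (SD, n = 4 each), and the call was lost without sort 2 or sort 4, with limma adjusted p up to 0.0609.

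zetaCOP, the small inner coat subunit, stood at 76.2, 50.4, 48.6 and 50.8 FPKM in GFP-positive libraries and 52.3, 40.6, 34.7 and 46.1 FPKM in all-cell libraries. GFP-positive library 1 was far above the other 3 of its group. Its log2 fold change over all libraries was 0.36 (limma adjusted p = 0.1205), it was called with the sort as a block (limma adjusted p = 0.0335), and without that library it was 0.21. betaCop, also of the inner coat, stood at 47.9, 46.7, 41.8 and 57.5 FPKM against 46.6, 39.4, 33.5 and 38.5 FPKM, a log2 fold change of 0.29 (limma adjusted p = 0.135). Its GFP-positive value was the higher one in each sort, least in sort 1 and most in sort 4. The outer coat genes alphaCop (0.12), beta'Cop (0.06) and epsilonCOP (-0.23) and the inner coat gene deltaCOP (-0.08) were not called. epsilonCOP was lower in GFP-positive cells in each sort, at 31.5 ± 6.497 against 37.4 ± 8.95 FPKM (SD, n = 4 each), and its locus overlaps CG9548.

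None of the 6 exocyst genes was called, against 11.6% of all genes called higher and 38.7% called lower. They were the least abundant members, with means from 4.66 to 14.8 FPKM in GFP-positive and 4.72 to 15.2 FPKM in all cells. Their median log2 fold change was -0.04 as deposited, 0.42 above all genes, but 0.36 with TMM-like scaling and -0.91 with the ERCC sum. With quantile normalization the exocyst median was 0.42, above those of the COPII (0.37) and COPI (0.34) genes. The fitted values ran from -0.22 to 0.03 as deposited. sec3, the subunit that binds the plasma membrane, stood at 6.57, 3.705, 5.95 and 5.23 FPKM against 6.67, 7.45, 3.99 and 7.65 FPKM (-0.22, limma adjusted p = 0.522). sec10 stood at 10.3, 6.38, 8.38 and 7.52 FPKM against 11.9, 10.1, 6.17 and 9.78 FPKM (-0.18, limma adjusted p = 0.5498), and sec15, which binds the vesicle through Rab11, at 8.12, 7.69, 6.39 and 6.52 FPKM against 7.78, 6.87, 6.52 and 8.66 FPKM (-0.05, limma adjusted p = 0.866). The groups overlapped in all 3, and the sign depended on the sort. In sort 3, 5 of the 6 exocyst genes were higher in GFP-positive cells, with a median log2 ratio of 0.43, whereas 2, 1 and 1 were higher in sorts 1, 2 and 4, with medians of -0.09, -0.45 and -0.31. sec6 differed most between sorts, at 1.02 in sort 3 and -0.29 to -0.31 in the others, and all-cell library 3 held its lowest value, 4.53 FPKM. That library was also the lowest of its group for sec3, sec5, sec8, sec10 and sec15, and it listed the fewest fly genes of its group at 1 FPKM or more, 10156; the part of that library in the pattern was not tested. sec5 (-0.04), sec6 (0.03) and sec8 (-0.03) lay within 0.05 of 0, and the loci of sec5 and sec8 overlap CG3246 and CG2082.

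The remaining 3 genes act at different steps. Sec22 (CG7359, chromosome X, 700105 to 702235), a SNARE protein of vesicle fusion between ER and Golgi, stood at 71.2, 70.9, 70.3 and 65.6 FPKM against 54.05, 37.5, 47.05 and 40.97 FPKM. All GFP-positive libraries were above all all-cell ones, in which the spread was wider, and the locus overlaps CG13358. Sec22 had a log2 fold change of 0.63 (limma adjusted p = 0.003403, SE 0.14), with means of 69.5 ± 2.62 and 44.9 ± 7.28 FPKM (SD, n = 4 each), and the call held without any 1 library or sort. sec71, a guanine nucleotide exchange factor for ARF GTPases, stood at 21.7, 15.96, 21.1 and 24.04 FPKM against 18.4, 14.1, 10.7 and 17.98 FPKM, a log2 fold change of 0.43 (limma adjusted p = 0.1104). Its GFP-positive value exceeded the all-cell value in each sort, most in sort 3, and the groups overlapped.

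Srp54 (CG4602, chromosome 2L, 9912907 to 9915044), the splicing factor, stood at 40.5, 29.2, 36.7 and 47.05 FPKM against 70.8, 85.01, 84.9 and 87.9 FPKM. Every GFP-positive library was below every all-cell library. It fell by 1.09 on the log2 scale (limma adjusted p = 2.81e-04, SE 0.16), from 82.1 ± 7.68 to 38.4 ± 7.45 FPKM (SD, n = 4 each), and was 0.63 below the median of all genes. It remained called lower under each scaling tried, with log2 fold changes from -0.63 with TMM-like scaling to -2.40 with the ERCC median.

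The scaling moved the members and the rest of the genes together, except with quantile normalization. There the median of all genes rose from -0.47 as deposited to -0.07, while CrebA went from 1.12 to 1.09 and sar1 from 0.79 to 0.80. Between the same fits the exocyst median rose from -0.04 to 0.42. The members' median lay above that of all genes by 0.68 as deposited, 0.76 with TMM-like, 0.73 with upper quartile and 0.53 with quantile scaling, 0.54 with the ERCC sum and 0.48 with the ERCC median. With upper quartile scaling 18 were called higher, against 16.0% of all genes, and with quantile normalization 16, against 18.9%. The ERCC median gave 0 higher and 19 lower, against 2.43% and 73.2%. By role, TMM-like scaling called 5 of 6 COPII, 5 of 7 COPI, 5 of 7 SRP and receptor and 4 of 4 translocon genes higher, and 0 of 6 exocyst genes, against 19.6% of all genes.

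**Figure D3:**
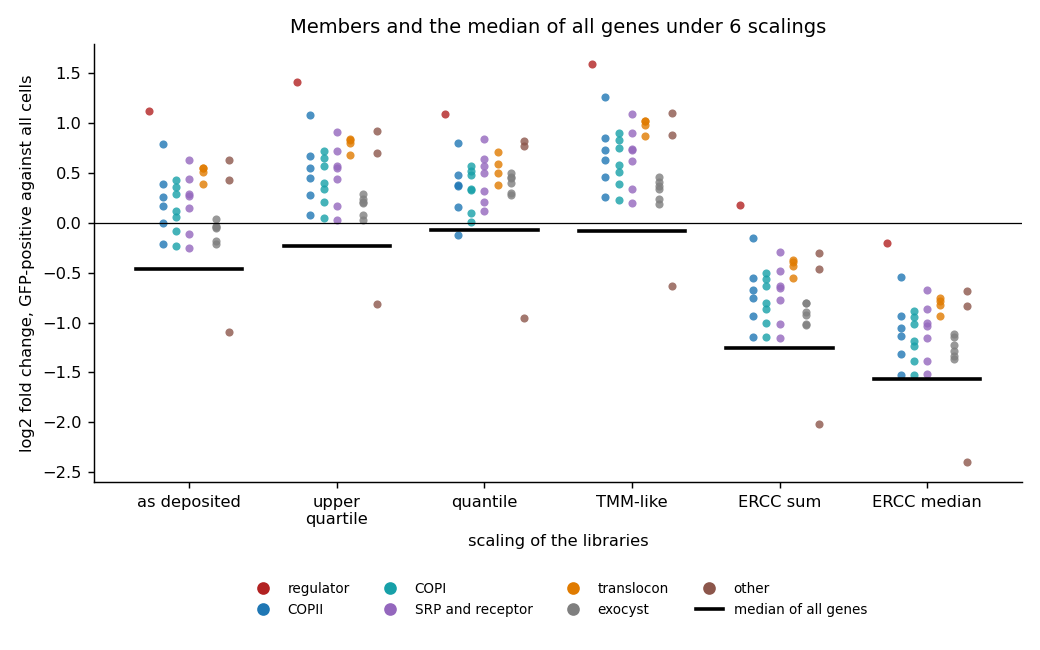
Log2 fold change, GFP-positive against all cells, of each member (points, coloured by role and offset sideways) under 6 scalings of the libraries, with the median of all genes tested under the same scaling (black line). Points and line move together, from a line at -0.08 with TMM-like scaling to -1.57 with the ERCC median, except with quantile normalization. There the line is at -0.07 and CrebA at 1.09, against 1.12 for CrebA as deposited. CrebA stays the highest point in all 6 while its value goes from 1.59 to -0.20.

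At the level of isoforms, 48 of the 53 isoforms of the members were tested. Of these, 9 were called higher and 3 lower, against 9.28% and 27.2% of all isoforms. In 23 members the gene has 1 isoform, with the same values as the gene. In members with several, 5 of 25 isoforms tested were called higher and 2 lower, against the same shares. CrebA has 2 isoforms and both rose as deposited. CrebA-RA went from 75.2 ± 15.7 to 169 ± 7.44 FPKM and CrebA-RB from 36.3 ± 7.59 to 71.9 ± 12.4 FPKM (SD, n = 4 each), with log2 fold changes of 1.18 and 0.97 (limma adjusted p = 8.26e-04 and 0.00372). CrebA-RA made up 70.2% ± 4.54 of the gene's FPKM in GFP-positive cells and 67.3% ± 3.98 in all cells (SD, n = 4 each), a difference within the spread of the libraries. Of sar1, 3 of 5 isoforms were tested, and sar1-RA, which held 96.2% ± 1.21 of the gene in GFP-positive and 92.5% ± 1.92 in all cells (SD, n = 4 each), rose by 0.85 (limma adjusted p = 0.00136). sar1-RB (0.26) and sar1-RE (-0.51) were not called, and sar1-RC and sar1-RD were below the filter.

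Isoforms of sec23 and Sec16 were called in both directions as deposited. sec23-RA stood at 6.18, 14.7, 11.4 and 24.2 FPKM in the all-cell libraries of sorts 1 to 4, or 18.7% ± 8.79 of the gene (SD, n = 4), and at 0 to 0.00150 FPKM in the GFP-positive ones. Its values in the GFP-positive libraries are far below 1 fragment and can be failed estimates, so that no fold is given for it (limma adjusted p = 2.22e-04). Because the estimates divide the gene's fragments among its isoforms, the levels and shares of the other sec23 isoforms carry the same doubt. sec23-RC went from 44.5 ± 4.09 to 84.6 ± 20.4 FPKM (SD, n = 4 each), a log2 fold change of 0.89 (limma adjusted p = 0.00539), and sec23-RB (-0.55, limma adjusted p = 0.1602) was not called. sec23-RD, below the filter, was listed at 0 in all 4 all-cell libraries and at 0.0340 to 9.13 FPKM in the GFP-positive ones. sec23-RC held 84.9% ± 7.36 of the gene in GFP-positive cells and 59.5% ± 1.45 in all cells (SD, n = 4 each), with each GFP-positive library above each all-cell library in FPKM. Sec16-RE rose from 51.9 ± 2.19 to 74.4 ± 7.62 FPKM (0.51, limma adjusted p = 0.0134; SD, n = 4 each). Sec16-RD stood at 13.3, 8.97, 12.9 and 11.97 FPKM against 16.6, 22.4, 24.3 and 15.5 FPKM, lower in GFP-positive cells in each sort (-0.69, limma adjusted p = 0.0333). With TMM-like scaling Sec16-RD was at -0.30 and no longer called (limma adjusted p = 0.373). Sec16-RE held 86.3% ± 2.12 of the gene in GFP-positive and 72.7% ± 4.08 in all cells (SD, n = 4 each).

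**Figure D4:**
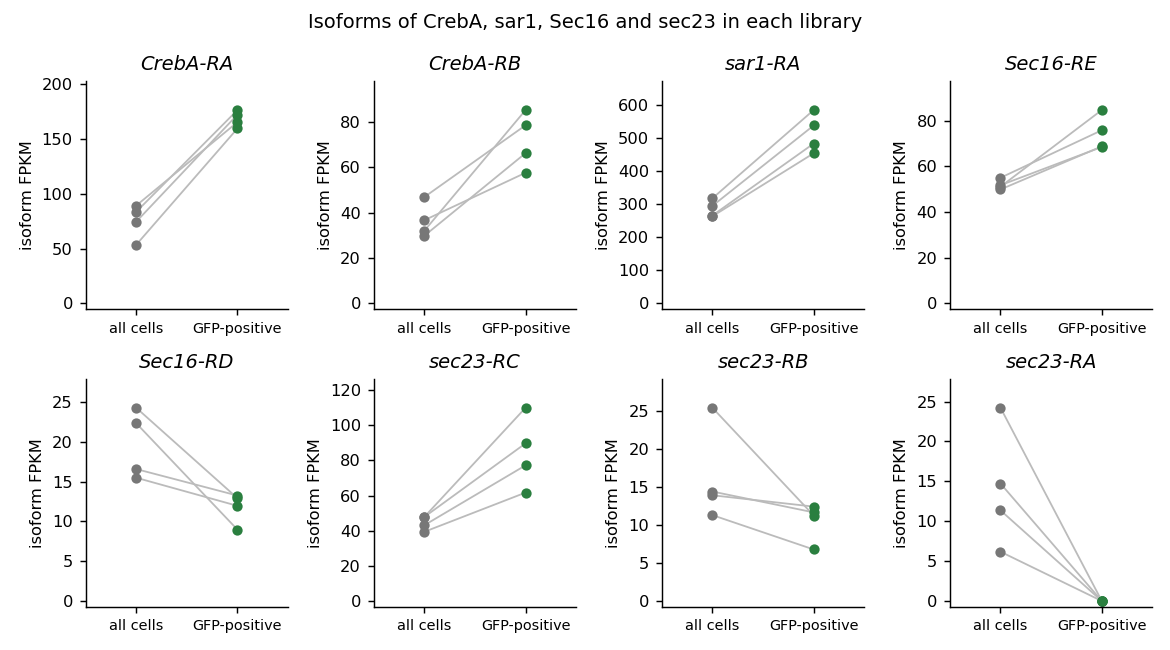
FPKM of isoforms of CrebA, sar1, Sec16 and sec23 in each library as deposited, with grey lines joining the libraries of a sort. sec23-RA is listed at or near 0 in all 4 GFP-positive libraries and at 6.18 to 24.2 FPKM in all cells, while sec23-RC lies at 61.7 to 109.9 FPKM against 39.3 to 47.8 FPKM.

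sec71 was listed almost wholly as sec71-RA, at 99.6% ± 0.63 of the gene in GFP-positive and 99.5% ± 0.36 in all cells (SD, n = 4 each), and sec71-RA was not called. In the other 6 members with several isoforms the division varied widely between libraries. None of the tested isoforms of alphaCop (RA and RB), deltaCOP (RA and RB), gammaCop (RA, RB and RC), zetaCOP (RA, RB and RC), sec31 (RA and RB) or Srp14 (RB and RC) was called. gammaCop-RA, for example, ran from 0.0151 to 33.2 FPKM among the GFP-positive libraries although the gene as a whole stayed between 62.1 and 68.4 FPKM. Isoform values are estimates that divide shared fragments.

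Genes that work beside the members were read from lists of known factors. Of 6 accessory factors of ER translocation, 3 were called higher and 0 lower as deposited, against 11.6% and 38.7% of all genes. Their median log2 fold change was 0.48, or 0.95 above all genes. With the ERCC median 0 were called higher and 2 lower, against 2.43% and 73.2% of all genes. Trp1, the Sec62-type partner of sec63, rose by 0.92 (limma adjusted p = 5.44e-04), TRAM, a channel-associated membrane protein, by 0.86 (limma adjusted p = 0.005596), and l(1)G0320, the alpha subunit of the translocon-associated protein complex, by 0.56 (limma adjusted p = 0.0195). The 10 genes of signal peptidase and oligosaccharyltransferase act in cutting and glycosylating the entering chain. Of these, 0 were called higher and 5 lower as deposited, against 11.6% and 38.7% of all genes. TMM-like scaling gave 2 and 1, against 19.6% and 21.9%. The ERCC sum gave 0 and 6, against 2.82% and 52.2%, and the ERCC median 0 and 10, against 2.43% and 73.2%. Ost48 stood at 27.5 ± 3.48 against 54.1 ± 6.13 FPKM (SD, n = 4 each), and OstStt3, the catalytic subunit, and CG33303 had log2 fold changes of -0.76 and -0.75. The list's median of -0.41 was 0.05 above that of all genes, and with TMM-like scaling Ost48 was the gene still called lower.

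Of 11 ER chaperones and folding enzymes 2 were called higher and 3 lower as deposited, against 11.6% and 38.7% of all genes. Their median was -0.13, 0.34 above all genes. The counts were 3 and 0 under TMM-like scaling, against 19.6% and 21.9% of all genes. Under the ERCC median they were 0 and 8, against 2.43% and 73.2%. Hsc70-3, the ER chaperone BiP, stood at 2069 ± 112 against 1047 ± 95.9 FPKM (SD, n = 4 each; 0.98, limma adjusted p = 1.55e-04). Cnx99A, a calnexin, and prtp had log2 fold changes of -0.75 and -0.62, neither of which was called with TMM-like scaling. Of 4 regulators of the unfolded protein response, the transcription factor gene Xbp1 rose by 0.39 (limma adjusted p = 0.0109) and Ire1, the ER sensor whose ribonuclease splices Xbp1 RNA, stood at 9.43 ± 3.301 against 21.9 ± 1.31 FPKM (SD, n = 4 each; -1.18, limma adjusted p = 0.00122). The other 2 were not called.

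Of 13 genes listed as p24 proteins and cargo receptors, 4 were called higher and 2 lower as deposited. Their median was 0.28, which is 0.74 above all genes. TMM-like scaling called 11 higher and 1 lower, and the ERCC median 0 and 8. Surf4 stood at 225 ± 40.5 against 110.4 ± 22.6 FPKM and the lectin ergic53 at 245 ± 33.1 against 134 ± 25.00 FPKM (SD, n = 4 each), rises of 1.02 and 0.87 (limma adjusted p = 6.20e-04 and 8.99e-04). cornichon (cni), which carries the growth factor Gurken out of the ER in the ovary, stood at 42.1 ± 12.1 against 94.3 ± 9.87 FPKM (-1.19, limma adjusted p = 6.79e-04; SD, n = 4 each). Of 21 Golgi SNAREs, tethers and ARF proteins 2 were called higher and 1 lower as deposited, with a median of 0.19, while TMM-like scaling gave 15 and 0, and the ERCC median 0 and 13. The TRAPP subunit Bet3 had a log2 fold change of -0.74, the ARF regulators Gap69C and garz of 0.47 and 0.37 (limma adjusted p = 0.04503, 0.03903 and 0.0474). Of 9 plasma membrane SNAREs and exocyst partners 1 was called higher and 2 lower as deposited, with a median of -0.35, while TMM-like scaling gave 1 and 1, and the ERCC median 0 and 8. n-syb, the neuronal synaptobrevin, stood at 11.7 ± 4.404 against 43.6 ± 7.82 FPKM and Syb, its widely expressed relative, at 157 ± 15.5 against 109 ± 14.9 FPKM (SD, n = 4 each), with log2 fold changes of -1.87 and 0.53; Snap24 had -0.55.

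**Figure D5:**
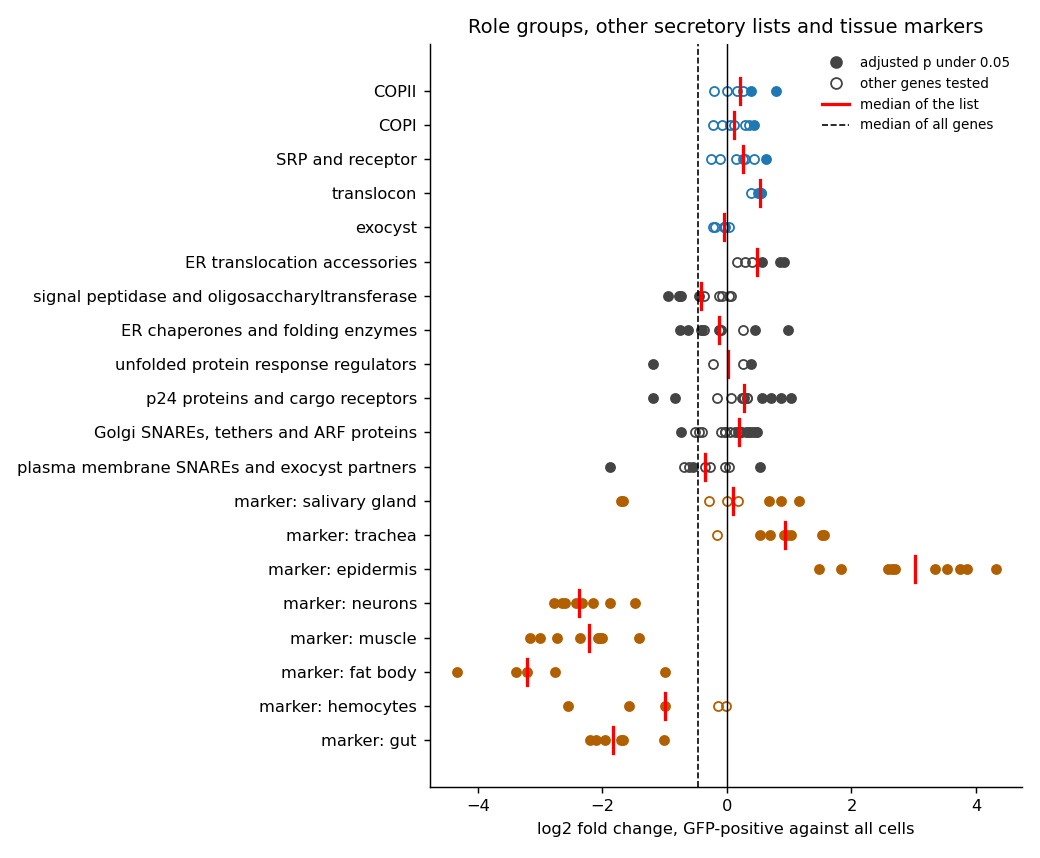
Log2 fold change, GFP-positive against all cells as deposited, of each gene tested in the role groups of the members (blue), in other secretory lists (grey) and in tissue marker lists (orange), with list medians (red) and the median of all genes (dashed, -0.47); filled points passed the test. The translocon median is 0.53 and that of the signal peptidase and oligosaccharyltransferase list -0.41. The secretory lists lie between the epidermal markers at 3.03 and the fat body markers at -3.21. With the ERCC sum or the ERCC median 0 of the secretory genes plotted were called higher, against 2.82% and 2.43% of all genes.

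Among other membrane trafficking genes, the 25 genes of the Rab family, small GTPases that mark compartments, had 10 called higher and 6 lower as deposited, their median being 0.10, which is 0.57 above all genes. Of the 33 genes for subunits of the vacuolar ATPase, the proton pump, 26 were tested, and 2 were called higher and 9 lower, their median being -0.15, which is 0.32 above all genes. As deposited 11.6% of all genes were called higher and 38.7% lower. With TMM-like scaling the counts were 14 and 1 for Rab genes and 7 and 2 for ATPase genes, against 19.6% and 21.9% of all genes. The members' median of 0.21 was higher than both as deposited, and no test of that difference was made.

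Markers of several tissues also differed between the groups. Of all genes, 11.6% were called higher and 38.7% lower as deposited, and 2.82% and 2.43% were called higher with the ERCC sum and the ERCC median. Of 10 epidermal markers 10 were called higher as deposited and 8 with either ERCC scaling. Their log2 fold changes ran from 1.47 to 4.31. Their summed level was 2577 to 3317 FPKM in GFP-positive and 251 to 539 FPKM in all-cell libraries. The epidermal list holds ovo, whose enhancer drove the EGFP sorted on, so the rise of ovo was not independent of the gate. Of 8 tracheal markers 7 were called higher as deposited and 0 with either ERCC scaling, with sums of 647 to 686 against 348 to 486 FPKM. Among them trh, a tracheal transcription factor, stood at 70.6 ± 6.51 against 23.4 ± 2.35 FPKM and vvl at 268 ± 33.9 against 93.6 ± 17.6 FPKM (SD, n = 4 each). Of 8 salivary gland markers 3 were called higher as deposited (eyg, toe and ps), 0 with either ERCC scaling, and 2 lower (fkh and hkb). fkh, which is needed for the gland and, like hkb, is also in the gut list, stood at 4.78 ± 2.605 against 16.7 ± 3.07 FPKM (SD, n = 4 each; -1.71, limma adjusted p = 9.48e-04). sage, a factor of the salivary gland, was not called, at 3.21 ± 0.883 against 3.67 ± 2.93 FPKM (SD, n = 4 each), and was named after its value was seen. The salivary sums, 399 to 505 against 265 to 333 FPKM, were mostly ps, at 405 ± 51.2 against 254 ± 31.02 FPKM (SD, n = 4 each).

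All tested markers of neurons, muscle, fat body and gut, but only some of hemocytes, were called lower as deposited. The calls took in all 8 neuronal and all 8 muscle markers, with sums of 88.5 to 267 against 537 to 1086 FPKM and of 349 to 579.9 against 1900 to 2895 FPKM. They also took in all 5 fat body markers tested of 6 listed, 3 of 5 hemocyte markers tested of 8 listed and all 6 gut markers. Of all genes tested, 38.7% were called lower as deposited. The hemocyte markers crq (-0.01) and Pxn (-0.15) were not called (limma adjusted p = 0.954 and 0.654). The sums of the fat body, hemocyte and gut lists were 67.2 to 119.7 against 489 to 1004 FPKM, 129 to 227 against 267 to 319 FPKM and 10.99 to 30.2 against 70.8 to 98.9 FPKM. With TMM-like scaling 8 neuronal, 8 muscle, 4 fat body, 2 hemocyte and 5 gut markers were called lower, against 21.9% of all genes. srp is in both the fat body and the hemocyte list, and n-syb is in the neuronal list too. No marker of any list was at 0 in all libraries. The part of tissue makeup in these marker differences, and in the levels of CrebA and the secretory genes, was not tested.

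The authors' deposited table holds a Cuffdiff comparison for each sort, 1 GFP-positive against 1 all-cell library. In the authors' deposited table CrebA was called higher in sort 2 (log2 fold change 1.52, q = 0.0275) and not in sorts 1, 3 and 4, at 0.84, 0.96 and 1.19 (q = 0.170, 0.181 and 0.0592). No other member was called in any sort in the authors' deposited table, although 14.7%, 14.5%, 11.2% and 12.0% of all genes were called in sorts 1 to 4. sar1, for example, had log2 fold changes of 0.85, 0.73, 0.80 and 0.79 there, with q from 0.421 to 0.550. These calls rest on 1 library a side and do not use the spread between sorts.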

How the data were processed

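RNA was sequenced from 4 GFP-positive and 4 all-cell samples of 4 sorts. Per the labels' protocols, 5 ng of total RNA with added ERCC spike-ins was amplified for each library. TopHat 1.4.0, Cufflinks 1.3.0, Cuffdiff 1.3.0 and the build dm3 are named in the submitters' processing notes. Not given in the sources used here are the settings, the annotation release and whether strand was used, so overlapping loci are marked as uncertain. The values deposited by the authors are FPKM per the file headers, while the tables' names say RPKM. The authors also deposited Cuffdiff log2 fold changes and q-values for each sort.

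Fly genes with 1 FPKM or more in at least 4 of 8 libraries were tested across all genes with limma 3.58.1 in R 4.3.3 on log2(FPKM + 1), with a mean-variance trend, two-sided and without a block. The Benjamini-Hochberg adjustment ran over all genes (threshold 0.05). Fold changes on this scale understate those of low genes. Isoforms were tested likewise. The scripts were tested on simulated data. Depth was estimated from steps in FPKM times transcript length, with lengths of a later annotation; intervals from it would cover counting error only. Coordinates were converted from 0-based starts.

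The labels number the sorts, and same-sort libraries deviated together from their group means (r = 0.44, 0.10, 0.41 and 0.17 over genes), so the sort number pairs the samples. The fit with it as a block was an alternative. Others were the pseudocount (0.1 and 5), no filter, TMM-like (30% trimmed at each end), upper quartile and quantile scaling, the ERCC sum, the median of 42 ERCC spike-ins at 1 FPKM or more in every library, library weights, and leaving out each library or sort.

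The members and lists were chosen with earlier results of these data known. All members are named. Values in all libraries are given for CrebA, sar1 and, in each role group, the 3 members with the largest absolute log2 fold change. Up to 3 called genes are named per list, those with the largest change, and isoforms for CrebA, sar1 and members with several tested. Other genes singled out, among the markers toe, ps, trh and vvl, were chosen after their values were seen. A gene table of a later assembly, Release 6, matched 5 list entries by name and left 0 unmatched.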

Additional observations from a re-analysis of the deposited data

Results flagged for a closer look

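In 2 of 68 groups of 4 libraries, 1 library stood apart from the other 3 of its group by Dixon's criterion, which chance alone meets in about 1 in 20 groups. zetaCOP was at 76.2 FPKM in GFP-positive library 1 and at 48.6 to 50.8 FPKM in the other 3. Sec22 was at 65.6 FPKM in GFP-positive library 4 and at 70.3 to 71.2 FPKM in the other 3, all above the all-cell libraries. Without these libraries the log2 fold change of zetaCOP went from 0.36 to 0.21 and that of Sec22 from 0.63 to 0.66.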

How the results depend on the processing

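With a replicate block for the sort, limma gave 12 members higher and 1 lower, against 13.2% and 44.6% of all genes, and left CrebA at 1.12. Beyond zetaCOP, Srp72, Sec61beta and Sec61gamma the block changed no call among the members. Members called higher numbered 8 as deposited, 22 with TMM-like, 18 with upper quartile and 16 with quantile scaling, and 0 with the ERCC sum and the ERCC median. The shares of all genes called higher were, in this order, 11.6%, 19.6%, 16.0%, 18.9%, 2.82% and 2.43%. Members called lower were 2 with the ERCC sum and 19 with the ERCC median, against 52.2% and 73.2% of all genes. Leaving out libraries or sorts gave 4 to 10 higher and 1 lower. Over all genes, TMM-like scaling gave 2143 higher and 2392 lower, quantile normalization 2063 and 2517, the ERCC sum 309 higher, the ERCC median 266 and 8011, and leave-one-out fits 893 to 1259 and 2978 to 4411. Isoforms called numbered 1503 higher and 4401 lower as deposited, 2259 and 2476 with TMM-like scaling and 1175 to 1470 and 3273 to 4232 in leave-one-out fits. CrebA was at 0.18 with the ERCC sum and at 0.99 to 1.23 in leave-one-out fits. The sign changed for sec13 with TMM-like scaling (0.46), from -0.0039 as deposited, which was near 0 and not called. With the ERCC sum it changed for sar1 (-0.15), sec23 (-0.55), gammaCop (-0.50), SrpRbeta (-0.29), sec63 (-0.37), Sec61alpha (-0.44) and Sec22 (-0.30). None of these was called with the ERCC sum. With the ERCC median the sign changed for CrebA (-0.20), sar1 (-0.54), sec23 (-0.93), Sec16 (-1.06), sec24 (-1.14), gammaCop (-0.88), betaCop (-1.02), alphaCop (-1.18), beta'Cop (-1.23), SrpRbeta (-0.67), Srp68 (-1.03), Srp9 (-1.15), sec63 (-0.76), Sec61alpha (-0.83), sec6 (-1.14) and Sec22 (-0.68). None of these was called both as deposited and with the ERCC median. The scale itself moves there, as the median of all genes shows. A further 77 changes of sign, in 25 members, were between values neither of which was called and are not listed. The pseudocounts changed 0 calls among the members, the fit without a filter 1 and library weights 2. Depth was estimated here, and it limits members with few fragments, such as sec5 and Srp19.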
